A study of Mus musculus with 319 samples.

Results

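Tuft cells with high RNA content were picked out among single cells sorted from the thymus of the mouse. Gene reads are all reads other than those of the ERCC spike-ins, and wells under 10000 gene reads or 1000 detected genes, or with over 20% mitochondrial reads, were left out. High-RNA cells were chosen by the ratio of gene reads to ERCC reads, at 3 or more, and there were 75 of them among 301 kept cells (314 wells held 1 cell). They were set against the 74 cells at a ratio of 1.2 or less, called low-RNA cells below, and the other kept cells, called intermediate, lay between. Because spike-in RNA is meant to go into each well in the same amount, the ratio stands for the RNA a cell gave to its library. It cannot tell a larger cell from one whose RNA was better kept or better converted to cDNA.

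Thymi of naive mice were pooled, and cells in the gate UVBlue-, CD11c-, CD45-, EPCAM+, MHCIIlo and Flare25+ were sorted into wells for Smart-seq2, which reads whole transcripts and carries no molecular tags. Flare25 reports Il25, so the gate takes cells that express this cytokine. All mice were Flare25/Flare25, 6 weeks old except for 1 sample of 5 weeks, with sex labelled as mixed. The Aire-/- set (96 kept cells, batch 2) was of strain C57BL/6.Il25.Aire and genotype Flare25/Flare25 Aire-/-. The wild-type sets WT batch 2 (89 kept cells), June29 (87) and June5 (29), the last pair of batch 1, were of strain C57BL/6.Il25. The series has 319 samples, of which 317 had a column of counts. No animal is named, so a set is 1 sample, and the ratio that picks the cells has the sum of all gene reads on top. Every difference below is therefore a description with no p-value, given for each set and as a mean ± SD over the 4 sets.

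Tuft cells are rare epithelial cells that sense chemicals with the machinery of taste: receptors activate the G protein gustducin, phospholipase C beta 2 and the calcium-gated channel Trpm5. They also make the cytokine IL-25 and eicosanoids, lipid mediators such as leukotrienes and prostaglandins. In the thymus they lie in the medulla, among other mature epithelial cells. In single-cell libraries, the number of genes seen and the shares of mitochondrial and nuclear RNA are commonly read as quality measures.

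High-RNA cells were 25 of 96 kept cells in the Aire-/- set (26%, 95% exact Clopper-Pearson interval 17.6 to 36) and 10 of 89 in WT batch 2 (11.2%, 5.52 to 19.7). The deposited list of wells splits both sets by a batch number of its own, 1 or 2, whose meaning it does not state. High-RNA cells were 12 of 48 Aire-/- cells and 5 of 48 WT batch 2 cells at number 1, and 13 of 48 Aire-/- cells and 5 of 41 WT batch 2 cells at number 2. The June29 set held 33 of 87 (37.9%, 27.7 to 49) and June5 held 7 of 29 (24.1%, 10.3 to 43.5). Low-RNA cells were 9, 35, 20 and 10 cells of the Aire-/-, WT batch 2, June29 and June5 sets, and all values below follow this order of sets. Intervals cover counting error only. The median ratio of high-RNA cells was 3.73, 3.67, 5.55 and 5.82, against 0.753, 0.700, 0.936 and 0.711 in low-RNA cells, which is how they were chosen. At the upper cut the nearest members were at 3.03 and the nearest other cells at 2.98, and 36 cells lay within 10% of it.

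Summed over cells, the ratio was 2.56 ± 0.31 higher on the log2 scale in high-RNA than in low-RNA cells (SD over 4 sets), a 5.88-fold difference. Both sides of the ratio took part. High-RNA cells had a median of 846705, 1104920, 1739160 and 1501760 gene reads, against 379860, 373214, 651141 and 347498 in low-RNA cells. Their median ERCC reads were 186225, 249036, 290155 and 337923, against 432921, 489161, 867550 and 493582 in low-RNA cells. In each set the gene reads were higher and the spike-in reads lower. The cells were chosen by this ratio, so its difference was set by the cuts and its parts are no separate result.

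Detected genes followed the ratio when total gene reads were made equal. The ratio and this count both rest on the RNA a cell gave, so the count is no independent check of the ratio. Thinning makes reads equal and not the RNA molecules behind them. With every cell thinned to 231697 gene reads, high-RNA cells had a read for a median of 4482, 5488, 5075 and 5049 genes, against 3176.5, 3450, 2700.5 and 3057 genes in low-RNA cells. The difference in genes with a read per cell, at 1 fixed depth, was 1927.5 ± 448 (high-RNA minus low-RNA medians, SD over the 4 sets), with the high-RNA median above in each. The thinning left out 1 high-RNA cell and 19 low-RNA cells that were shallower than this, and without thinning the difference was 2487.5 genes. The equal depth also counts the ribosomal, mitochondrial and satellite-region reads treated below. Other reads made up 88.3% to 90.6% of gene reads in high-RNA cells of the 4 sets and 60.3% to 72.6% in low-RNA cells. Depth in those other reads was therefore not made equal, and genes seen at an equal depth of them were not counted. Within the high-RNA cells alone, the ratio and the genes at equal depth had a Spearman correlation of 0.33 in the Aire-/- set (n = 24 cells) and 0.41 in June29 (n = 33 cells), the sets with at least 20 such cells. Cells of 1 set share their pool.

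**Figure D1:**
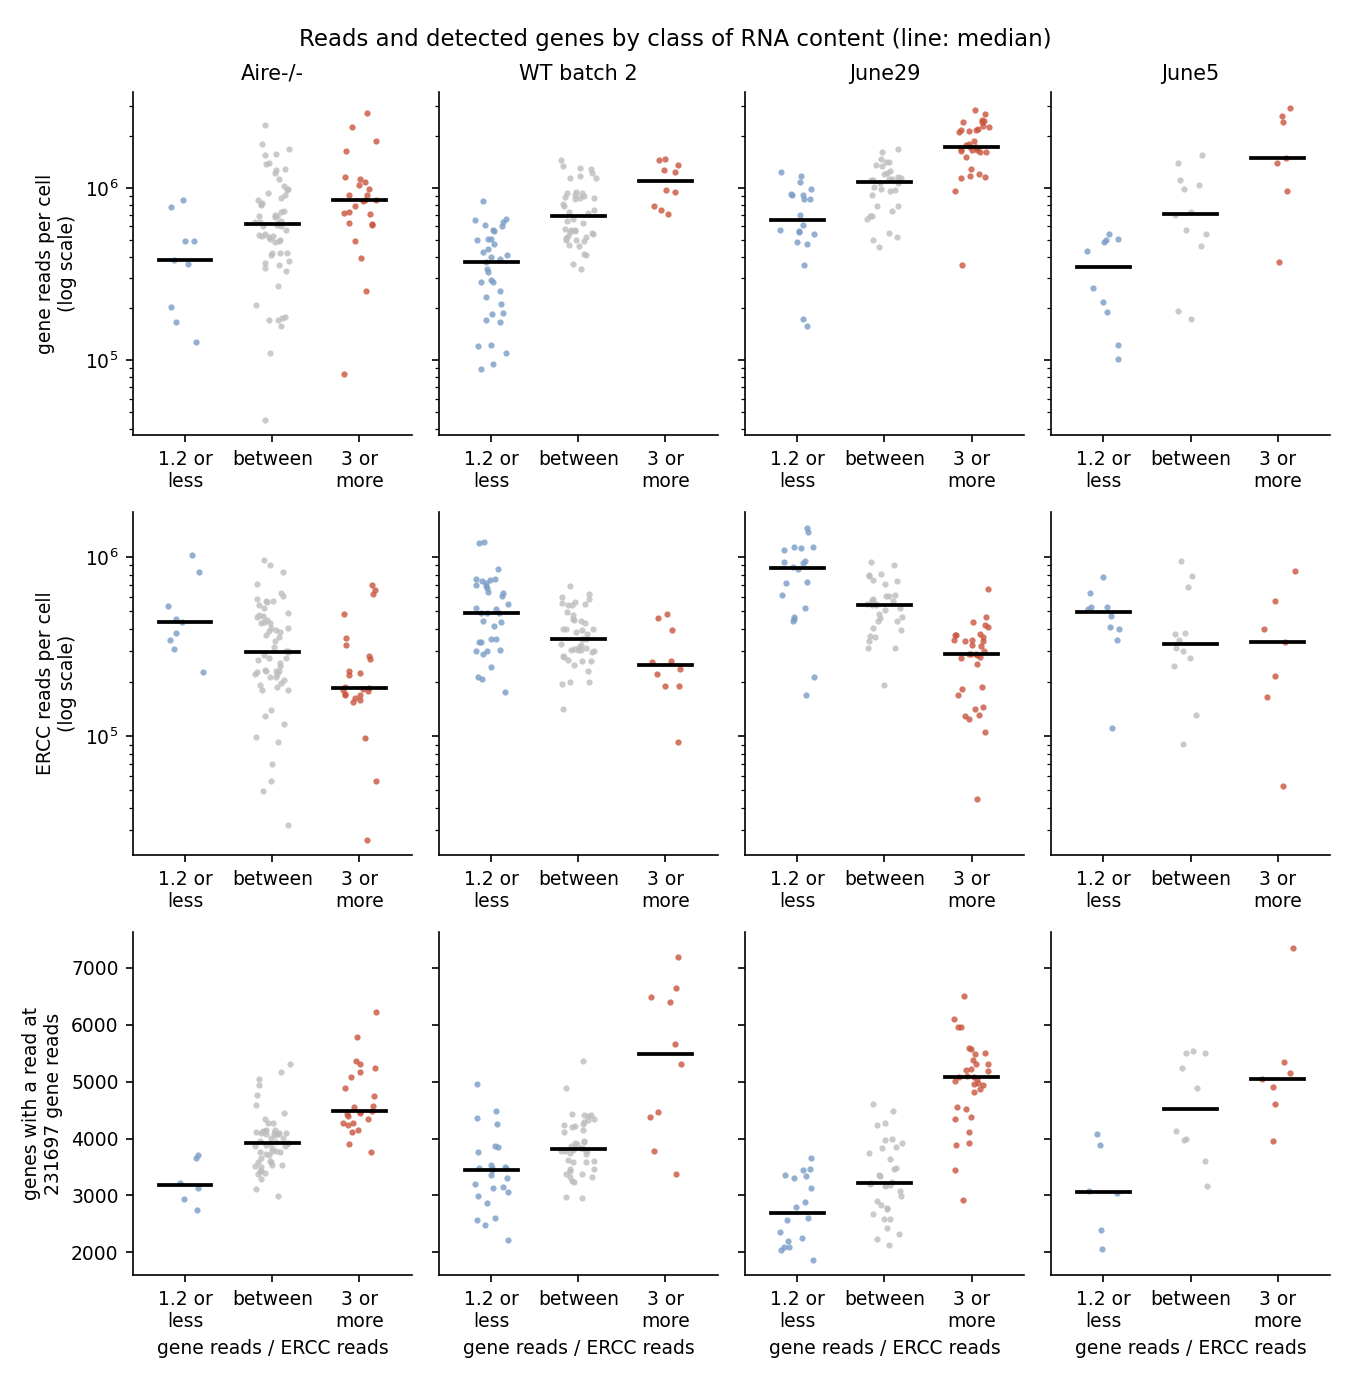
Gene reads per cell (upper row, log scale), ERCC reads per cell (middle row, log scale) and genes with a read after thinning to 231697 gene reads (lower row) for cells at a ratio of 1.2 or less (blue), between (grey) and 3 or more (red), in the 4 sets; a point is a cell and a line the median. The medians of genes at equal depth in high-RNA cells lie between 4482 and 5488, above all 4 medians of low-RNA cells.

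The label was checked against tuft markers. Each of the 75 high-RNA cells had at least 2 of 35 tuft core genes at 5 or more reads. So did every low-RNA and intermediate cell, so this count set no kept cell apart and cannot test the label. The summed level of these genes in high-RNA cells had a median of 40634, 27254, 35563 and 44081 CPM (counts scaled in the usual way by the total of gene reads). In low-RNA cells it was 27454, 29226, 25719 and 26632 CPM. The medians were higher in high-RNA cells of 3 sets and lower in WT batch 2. A few members stood apart: 6 of the 75 had tuft core genes below 5000 CPM in all, against 3 intermediate and 1 of 74 low-RNA cells. The lowest, an Aire-/- cell at a ratio of 4.96, had 128.7 CPM of tuft core genes and only 2 of them at 5 or more reads, which goes against the label for that cell. A WT batch 2 member had 554 CPM and 8 of them, and a June29 member 979 CPM and 13. Members at 4322 CPM (June29) and 4631 CPM (WT batch 2) had 17 each, with 3 and 2 B cell markers and 3 dendritic cell or macrophage markers each. In the same order they had 2 and 0 thymocyte markers and 2 each of cortical epithelium. Of medullary thymic epithelial cells (mTEC) they had 1 and 4 low-MHC and progenitor markers and 0 and 3 Aire-expressing markers. Genes for MHC class II presentation summed to 34302.5 and 25212.5 CPM in them. The label is in doubt for these members too. Over 10000 CPM were 65 of 75 high-RNA cells and 72 of 74 low-RNA cells. Another Aire-/- member had 2960 CPM of tuft core genes and 117009 CPM of genes for MHC class II presentation, with 6 markers of Aire-expressing mTEC. Without the cells below 5000 CPM the later counts of genes were 1514 higher and 120 lower.

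Markers of other cell types were seen more often in high-RNA cells, in which more genes of any kind were detected. Counts of cells with 5 or more reads, here and elsewhere, were made without thinning. High-RNA cells had more gene reads in each set, so such counts are at unequal depth. At least 2 markers of cortical epithelium at 5 or more reads were found in 37 of 75 high-RNA cells and 5 of 74 low-RNA cells, of low-MHC and progenitor mTEC in 24 against 11, of Aire-expressing mTEC (medullary thymic epithelial cells) in 20 against 7, and of microfold-like cells in 72 against 53. Markers of a haematopoietic type were found in 19 high-RNA cells and 15 low-RNA cells, those of fibroblasts in 1 against 1 and of endothelium in 2 against 1. Summed over the list, cortical genes averaged over sets 509 CPM in high-RNA cells and 210 CPM in low-RNA cells. No high-RNA cell had both Xist and Y-linked reads, against 1 low-RNA and 1 intermediate cell, and this check bears only on pairs of a male and a female cell. In the Aire-/- set no kept cell had Y-linked reads without Xist, and in June29, which held the low-RNA cell with both, none had Xist alone. Well content beyond this was not checked, since no doublet caller was run, and the part of paired cells in the results was not tested.

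Gene levels were compared as CPM of the summed reads of each class, within each set, as log2 folds with 1 CPM added to each side. A gene was called by size when it averaged at least 20 CPM in the higher class, had the same sign in all 4 sets and a mean log2 fold of at least 1 in size, also without the cell that held most of its reads in each set. Of 8302 genes tested, 1614 (19.4%) were higher and 1.42% lower in high-RNA cells. The median log2 fold of all tested genes was 0.99 ± 0.43, with 0.78, 0.21, 1.26 and 0.74 in the 4 sets, so folds are read against that median as well as against 0. The intermediate cells' mean level lay between the other classes for 1412 of the 1614 higher genes. These genes were called for a difference between the outer classes, which partly sets this count. The same share over all tested genes was not counted, so no gradual change is read from it. When folds were centred by median-of-ratios scaling, 764 genes were higher and 402 lower, so the share of higher genes among those called was 65.5% in place of 93.2%. The lower count was 208 without the Aire-/- set and 205 without June29.

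Folds differed with level. Genes at 10 to 50 CPM, averaged over both classes, had a median log2 fold of 1.02, those at 50 to 200 CPM 0.77, those at 200 to 1000 CPM 0.65 and those at 1000 CPM or more 0.36. From the lowest to the highest level, the set medians fell in Aire-/- (1.36, 0.47, 0.30 and 0.20) and June29 (1.47, 1.04, 0.88 and 0.39). They did not fall steadily in WT batch 2 (0.11, 0.22, 0.28 and 0.04) or June5 (0.68, 0.56, 0.68 and 0.72). In a class of 9 or 10 cells the fold of a gene of low level can rest on few cells. Whether genes of low level are missed in whole low-RNA cells was not tested. Among the 606 genes at 200 CPM or more, 23.3% were higher and 6.6% lower, and of the 69 genes at 1000 CPM or more 16 were higher and 17 lower.

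A single ribosomal RNA entry took up much of the libraries. CT010467.1, annotated as rRNA at chr17:39846353-39848827 (GRCm38, minus strand), had 67131, 69234, 43232 and 47154 CPM in high-RNA cells, against 170036, 153590, 179207 and 157412 CPM in low-RNA cells. The 2 classes do not overlap over sets, and the mean log2 fold was -1.57 ± 0.40. Once the reads of this gene and its neighbour Gm26917, of mitochondria, of nuclear copies of mitochondrial sequence and of the satellite-region genes described below are taken out, 88.5%, 88.3%, 88.9% and 90.6% of gene reads were left in high-RNA cells, against 70.5%, 72.6%, 60.3% and 67.5% in low-RNA cells. On those remaining reads the ratio to ERCC reads was 2.95 ± 0.41 higher on the log2 scale. Scaling to those reads alone gave 1163 genes higher and 201 lower, with a median log2 fold of 0.58 over all genes, so part of the median of 0.99 moves with these abundant RNAs.

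**Figure D2:**
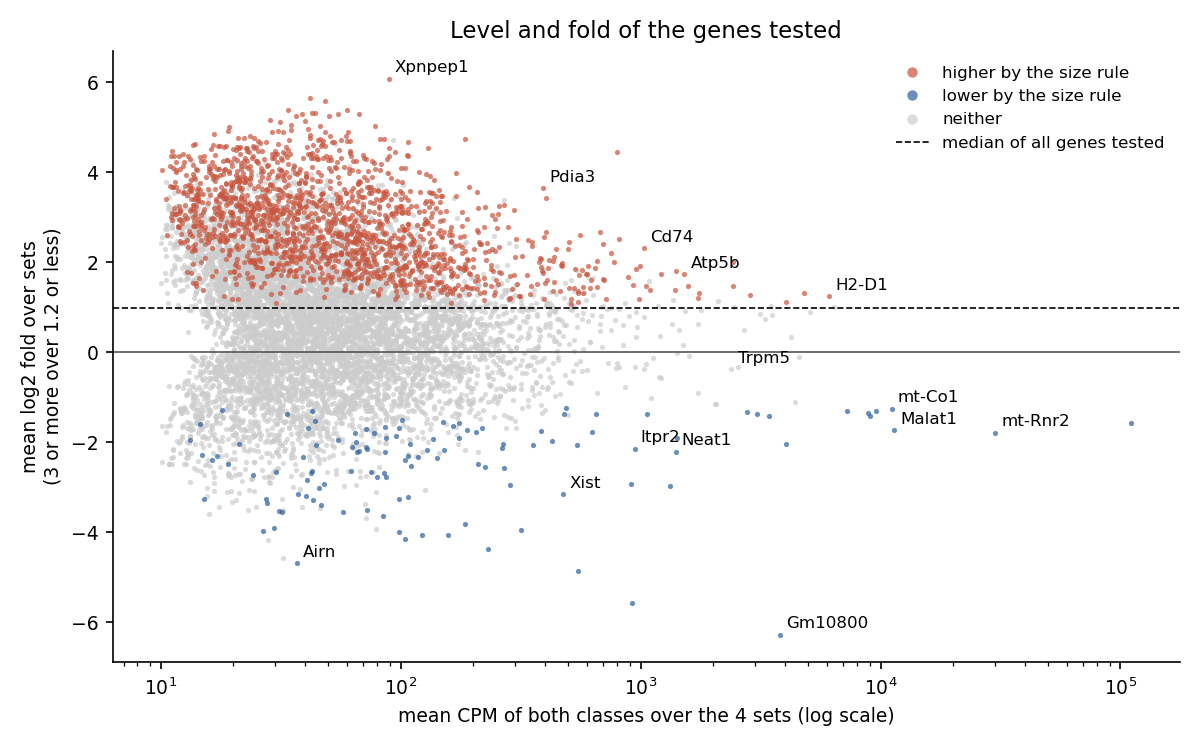
Mean level of both classes over the 4 sets (x axis, CPM, log scale) and mean log2 fold of high-RNA over low-RNA cells (y axis) for the 8302 genes tested, with genes higher (red), lower (blue) or neither (grey) by the size rule. The dashed line is the median of all genes, 0.99, and several of the most abundant transcripts lie among the lower genes.

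Mitochondrially encoded transcripts made up a smaller share of high-RNA cells. The mitochondrial genome encodes 13 subunits of the respiratory chain and the 2 ribosomal RNAs mt-Rnr1 and mt-Rnr2. The median share of gene reads from mitochondria was 2.77%, 3.23%, 3.13% and 2.78% in high-RNA cells, against 9.71%, 8.51%, 11.1% and 14.5% in low-RNA cells. The difference of the medians was -7.98 ± 2.72 percentage points, and 3 of 75 high-RNA cells were above 10%, against 30 of 74 low-RNA cells. The intermediate cells were at 3.51%, 3.32%, 13.1% and 5.86%, so in June29 they did not lie between. The filter of 20% had removed 12 wells, of which 1 was at a ratio of 3 or more and 6 were at 1.2 or less.

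Of the 13 mitochondrially encoded subunit genes 9 were measurable and 7 were called lower, beside 1.42% of all genes, with a median log2 fold of -1.31 ± 0.12. Each of the 9 was negative in its mean. mt-Co1, a subunit of cytochrome oxidase, had 7222, 6154, 6802 and 6169 CPM in high-RNA cells, against 15534, 13833, 16325 and 16942 CPM in low-RNA cells, a log2 fold of -1.25 ± 0.15. mt-Cytb, the cytochrome of complex III, had 4270, 4160, 8661 and 5117 CPM in high-RNA cells, against 11462, 9927, 19534 and 13364 CPM in low-RNA cells. In neither gene did the classes overlap over sets. mt-Rnr2, the large ribosomal RNA, had 13540, 15183, 14725 and 10551 CPM in high-RNA cells, against 38541, 38134, 51864 and 58499 CPM in low-RNA cells, a log2 fold of -1.78 ± 0.50. The unmeasured mt-Atp6, mt-Atp8 and mt-Co2 were listed at 0. Nuclear pseudogenes such as Gm10925 on chromosome 1, all of whose 25-base words also occur in mitochondrial genes, were also lower, with 3998, 4170, 8068 and 3829 CPM in high-RNA cells against 11447, 10802, 17279 and 12455 CPM in low-RNA cells. Reads of such copies and of the mitochondrial genes cannot be told apart.

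These are changes in share. Per ERCC read, the median of the 9 mitochondrially encoded genes was 1.25 higher on the log2 scale in high-RNA cells, against 2.56 for the sum of all gene reads. That sum is not a median over genes. The median of the 9 was 2.30 under the median of all tested genes. Per ERCC read, 44 of the genes called lower by share had a negative mean and 74 a positive one, and 8 of all genes were negative in every set.

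Nuclear noncoding RNAs also had a smaller share. Malat1, an abundant RNA kept in nuclear speckles (chr19:5795690-5802672), had 2964, 4705, 9300 and 4229 CPM in high-RNA cells, against 9120, 13456, 28200 and 19446 CPM in low-RNA cells, lower in each set with a log2 fold of -1.73 ± 0.31. Cell by cell, its median was 2808, 4015, 7644 and 3371 CPM in high-RNA cells, against 9314, 15827, 27570 and 21084 CPM in low-RNA cells. Neat1, the scaffold of paraspeckles, had 520, 343, 1005 and 276 CPM in high-RNA cells, against 1959, 1931, 1734 and 3423 CPM in low-RNA cells, and the classes do not overlap over sets, whereas for Malat1 the highest set of high-RNA cells overlapped the lowest of low-RNA cells. Of 8 measured nuclear RNAs 3 were called lower, beside 1.42% of all genes, with a list median of -1.47 ± 1.03. The third, Xist, coats the inactive X chromosome of females and depends on how many cells of each class are female: Xist reads without Y-linked reads were seen in 31 of 75 high-RNA cells and 28 of 74 low-RNA cells. Its log2 fold was -3.14 ± 1.89, with 0 CPM in high-RNA cells of June29 and 8.34 CPM in low-RNA cells of that set. Of those low-RNA cells, only the 1 that also had Y-linked reads held 5 or more Xist reads. The call needs a lower level in June29 too, so it leans on that cell.

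**Figure D3:**
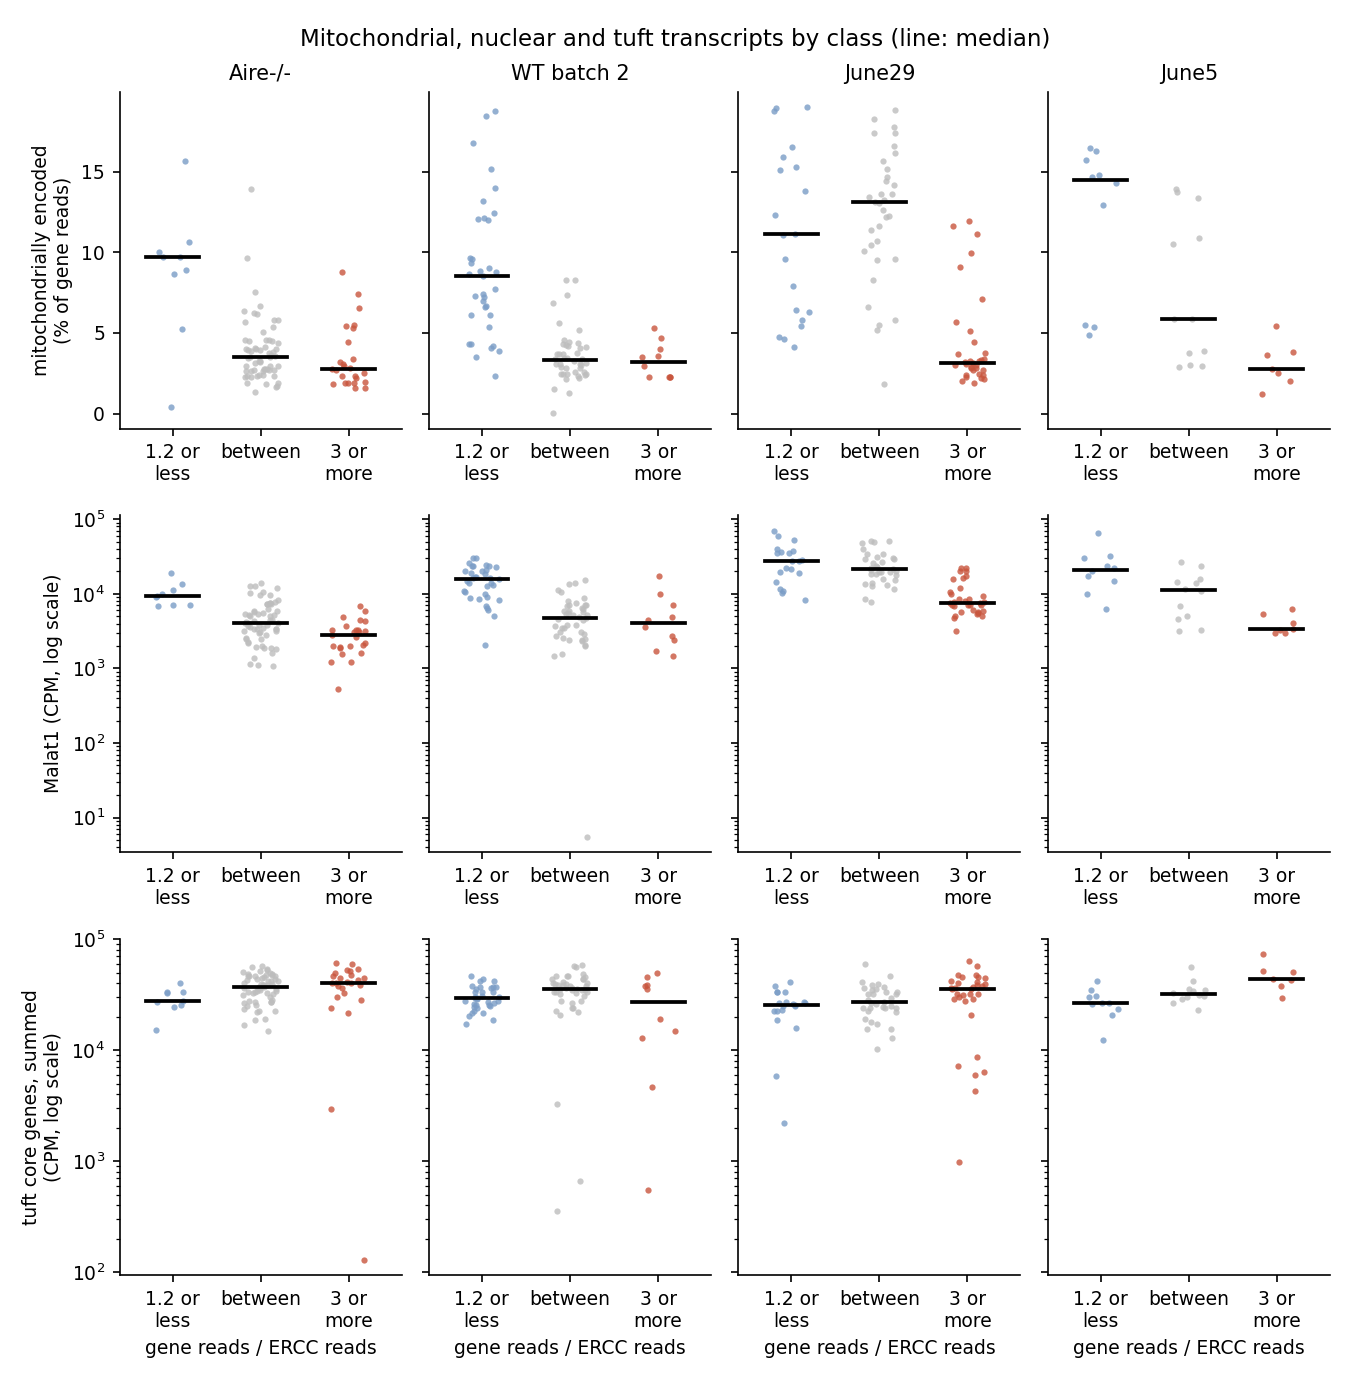
Share of gene reads from mitochondria (upper row, %), Malat1 (middle row, CPM, log scale) and the sum of tuft core genes (lower row, CPM, log scale) per cell at a ratio of 1.2 or less (blue), between (grey) and 3 or more (red), in the 4 sets; a line is the median. The mitochondrial medians of high-RNA cells lie between 2.77% and 3.23% and those of low-RNA cells between 8.51% and 14.5%, while most high-RNA cells share the tuft level of the others and 6 lie under 5000 CPM.

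The 3 lowest mean folds of all genes tested belonged to predicted genes in satellite repeats, Gm10800, Gm10801 and Gm26870. Satellite repeats are tandem copies of a short unit around centromeres, and genes predicted in them hold nearly the same sequence. The first 60 bases of 3 of these transcripts are shown because the copies share most of this stretch and differ only after its first 42 bases, taken from GENCODE M21 transcripts (GRCm38), 5′ to 3′, with the longest run common to all 3 (42 bases) in capitals:
Gm10800 (chr2:98666547-98667301, minus strand): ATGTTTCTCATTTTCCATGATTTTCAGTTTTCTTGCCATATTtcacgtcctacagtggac
Gm10717 (chr9:3025417-3033289, plus strand): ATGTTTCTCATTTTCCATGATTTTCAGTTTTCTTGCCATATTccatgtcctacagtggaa
Gm11168 (chr9:3003346-3006948, plus strand): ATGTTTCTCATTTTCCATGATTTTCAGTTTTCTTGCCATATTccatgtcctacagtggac
Across the 12 listed genes, the share of 25-base words found in another of the 12, read on either strand, ran from 44.5% to 95.3% with a median of 79.9%. These genes were listed after their values had been seen.

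Gm10800 had 12.5, 9.50, 2107 and 2.05 CPM in high-RNA cells, against 1560, 417, 24444 and 2034 CPM in low-RNA cells. It was lower in each set, with a log2 fold of -6.27 ± 2.48, and June29 stood far above the other sets in both classes. All 11 of the 12 genes that reached the level minimum were called lower, beside 1.42% of all genes, but they were listed with their values known. Their sum per cell had a median of 15.6 CPM in high-RNA cells of June29, against 30772 CPM in its low-RNA cells, and of 0 CPM in high-RNA cells of the other sets, against 0, 0 and 401 CPM in low-RNA cells of Aire-/-, WT batch 2 and June5. The falls of the batch 2 sets therefore rest on the minority of low-RNA cells with such reads, up to 10357 CPM in Aire-/- and 6437 CPM in WT batch 2. A well of batch 1 that held no cell had 9892 gene reads, of which satellite-region genes made up 4448 CPM and tuft core genes 22240 CPM, and the wells with 50 cells had 44.5 CPM (Aire-/-) and 84.7 CPM (WT). How far free DNA or RNA in a well adds to these reads was not tested. Of the 8 genes lower per ERCC read in every set, 7 were in this group, and the eighth was Gm24447, chosen after its values were seen.

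Among the 83 lower genes other than predicted genes, transcripts were long. Their exons summed to a median of 8.28 kb, against 3.67 kb for the 1495 such genes that were higher and 4.87 kb for the 6147 in neither class, and their spans on the genome to 43 kb, against 20.6 and 26.1 kb. At a like level of 50 to 200 CPM the exon medians were 11.8 kb for lower, 3.61 kb for higher and 5.07 kb for other genes. Airn, an antisense RNA of the imprinted Igf2r locus, had 0, 2.10, 0.734 and 0 CPM in high-RNA cells, against 191.6, 75.1, 7.21 and 18.5 CPM in low-RNA cells, and 5 or more reads were seen in 4 of 75 high-RNA and 13 of 74 low-RNA cells. Dnah5, an axonemal dynein heavy chain of cilia, had 27.8, 145.4, 12.9 and 0 CPM in high-RNA cells, against 272, 408, 204 and 190 CPM in low-RNA cells. Acaca, the acetyl-CoA carboxylase of fatty acid synthesis, had 0.866, 0.0914, 6.49 and 1.31 CPM in high-RNA cells, against 115.8, 54.5, 12.4 and 22.6 CPM in low-RNA cells, but its log2 fold of -3.96 was -1.11 once the low-RNA cell with most of its reads was left out in each set. Among called genes other than predicted genes, the next lowest folds were those of Tecpr2, Ankrd11, Ccdc88b, Nlrc5, Sema3f, Tle3, Eml5, Hmgxb4 and Bcl7a, with mean log2 folds between -3.91 and -3.26.

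Among tuft genes, a single step of the signalling chain was lower. Itpr2, the receptor that releases calcium from the endoplasmic reticulum, had 169.2, 252, 452 and 548 CPM in high-RNA cells, against 913, 1054, 2464 and 1695 CPM in low-RNA cells, a log2 fold of -2.14 ± 0.38 with no overlap of the classes. In taste transduction 3 of 16 genes were higher, a share near the 19.4% of all genes: Gnb1 and Rgs21, a G protein beta subunit and a regulator of G protein signalling, and Tas1r1, a subunit of the umami receptor. Rgs21 had 413, 96, 576 and 311 CPM in high-RNA cells, against 7.01, 64.1, 9.89 and 1.49 CPM in low-RNA cells, and 27 high-RNA and 8 low-RNA cells held 5 or more of its reads without thinning. Trpm5, the channel at the end of the chain, had 1879, 1541, 1661 and 3393 CPM in high-RNA cells, against 1811, 2858, 2925 and 3035 CPM in low-RNA cells, and its mean log2 fold of -0.37 ± 0.56 was within the spread over sets.

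Of 33 tuft core genes tested, 2 were higher (Rgs13 and Rgs21) and 1 was lower (Nrgn), with a list median of 0.17 ± 0.34, which is 0.82 under the median of all genes and turns to -0.57 under centring. These counts, and those of the lists that follow here, stand beside 19.4% of all genes higher and 1.42% lower. Rgs13, another regulator of G protein signalling, had 1160, 1696, 1413 and 1809 CPM in high-RNA cells, against 576, 997, 298 and 476 CPM in low-RNA cells. The transcription factors of the tuft lineage had a list median of -0.01 ± 0.64 with none called of 12, and genes of eicosanoid synthesis 0.15 ± 0.34 (-0.59 under centring) with 1 of 11 called, Ptges3, the cytosolic prostaglandin E synthase and a co-chaperone. Il25 itself had 94.2, 68.3, 34.6 and 98 CPM in high-RNA cells, against 130.8, 91.9, 35.5 and 37.2 CPM in low-RNA cells, a log2 fold of 0.11 ± 0.86. Of 14 bitter receptors tested 1 was higher, Tas2r115, with a log2 fold of 3.09 ± 3.10, but -0.17 within the batch numbers of the well list. That setting held only WT batch 2 at both numbers and Aire-/- at number 1, so the sets compared changed as well. None was higher under centring or with 5 CPM added. The number of them seen per cell at equal depth had a median of 7.5, 2, 4 and 4 in high-RNA cells, against 1.5, 2, 2 and 3 in low-RNA cells, equal in WT batch 2.

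Among genes of central energy metabolism, the TCA cycle stood at the top of the plotted lists. In this cycle, which oxidises acetyl groups in mitochondria, 11 of 19 genes were higher, beside 19.4% of all genes, and none was lower (8 and none under centring), with a list median of 2.41 ± 0.96, or 1.42 above the median of all genes. Each of the 19 had a positive mean. Mdh2, the mitochondrial malate dehydrogenase, had 741, 446, 597 and 872 CPM in high-RNA cells, against 178.6, 266, 106.2 and 114.001 CPM in low-RNA cells, with no overlap. Pdha1, a subunit of pyruvate dehydrogenase, had 124.3, 66.2, 148.02 and 179.1 CPM in high-RNA cells, against 4.41, 4.22, 0.919 and 58 CPM in low-RNA cells, with 5 or more reads in 50 high-RNA and 4 low-RNA cells without thinning. The nuclear-encoded genes of the respiratory chain were less shifted, with 25 of 75 higher, none lower and a median of 0.63 ± 0.40, below the median of all genes and at -0.12 under centring. Atp5b, a catalytic subunit of ATP synthase, had 3218, 2052, 1238 and 2918 CPM in high-RNA cells, against 921, 739, 387 and 711 CPM in low-RNA cells, a log2 fold of 1.75 ± 0.24. Under centring 9 nuclear-encoded genes of the chain were higher and 2 lower. In glycolysis 2 of 18 genes were higher, a smaller share than the 19.4% of all genes, the enolase Eno1 and the lactate transporter Slc16a3, with a list median of 1.45 ± 0.56.

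Counts of higher genes in protein handling depended on the scaling. In the proteasome, which degrades tagged proteins, 14 of 26 genes were higher, beside 19.4% of all genes, none was lower and all 26 had positive means, with a median of 1.92 ± 0.58. Psmd1, a subunit of its cap, had 180, 155.3, 84.5 and 194 CPM in high-RNA cells, against 21.3, 19.4, 1.13 and 33 CPM in low-RNA cells. In folding and secretion at the endoplasmic reticulum 15 of 27 genes were higher, with a median of 1.62 ± 0.55. Pdia3, a disulfide isomerase that folds glycoproteins, had 436, 544, 956 and 938 CPM in high-RNA cells, against 94, 108.7, 14.8 and 50.9 CPM in low-RNA cells, and Hspa5, the main chaperone there, had 796, 1045, 1218 and 1128 CPM in high-RNA cells, against 213, 431, 506 and 273 CPM in low-RNA cells. Neither gene overlaps between classes. Cytosolic chaperones had 8 of 20 genes higher (median 1.25 ± 0.37) and autophagy and lysosome genes 8 of 20 (1.66 ± 0.27). Under centring, where 9.13% of all genes were higher, the higher genes numbered 4 of 26 in the proteasome, 4 of 27 at the endoplasmic reticulum, 3 of 20 chaperones and 3 of 20 in autophagy and lysosome, with none lower.

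Genes that make the translation machinery behaved unevenly. Of 20 aminoacyl-tRNA synthetases 6 were higher (median 1.55 ± 0.57), and of 27 translation factors 10 were (1.08 ± 0.61), beside 19.4% of all genes. Under centring 2 synthetases and 3 translation factors were higher, beside 9.13% of all genes. Eef1a1, which carries tRNAs to the ribosome, had 2809, 2139, 1526 and 1508 CPM in high-RNA cells, against 1072, 954, 374 and 777 CPM in low-RNA cells. Cytosolic ribosomal proteins did not follow: 1 of 84 was higher, Rps27l, with a list median of -0.19 ± 0.45, which is 1.18 under that of all genes. Their median per-cell sum was 15669, 18238, 8765 and 9555 CPM in high-RNA cells, against 16209, 17298, 5819 and 10972 CPM in low-RNA cells, with no common direction. Immediate early genes were mostly under the median of all genes, with 3 of 18 lower (Egr3, Fosb and Jund), beside 1.42% of all genes. One of them, Socs3, an inhibitor of cytokine signalling, was higher.

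In MHC class I presentation 5 of 16 genes were higher, beside 19.4% of all genes, and H2-D1, H2-K1 and B2m were the 3 most abundant of all higher genes. H2-K1, a classical class I heavy chain, had 6479, 8597, 4721 and 7276 CPM in high-RNA cells, against 3721, 3791, 1941 and 1788 CPM in low-RNA cells, a log2 fold of 1.32 ± 0.51, while Nlrc5, the activator of these genes, was lower. Under centring 1 class I gene was higher and 1 lower. In MHC class II presentation 3 of 9 genes were higher and under centring none was, with a median of 2.33 ± 0.83. Cd74, the invariant chain, had 4170, 1358, 1236 and 312 CPM in high-RNA cells, against 541, 335, 198 and 94.7 CPM in low-RNA cells, which overlap. Its mean log2 fold of 2.33 was 1.22 once the top cell in each set was left out, and cells with few tuft reads carry part of the signal. Per cell, class II genes summed to a median of 1218, 1759, 967 and 732 CPM in high-RNA cells, against 1538, 472, 206 and 79 CPM in low-RNA cells, so the Aire-/- set ran the other way. Without the cells of few tuft core reads the list median was 1.66. The gate takes MHCIIlo cells, and the part of the members with few tuft reads in the class II folds is given only by this value.

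**Figure D4:**
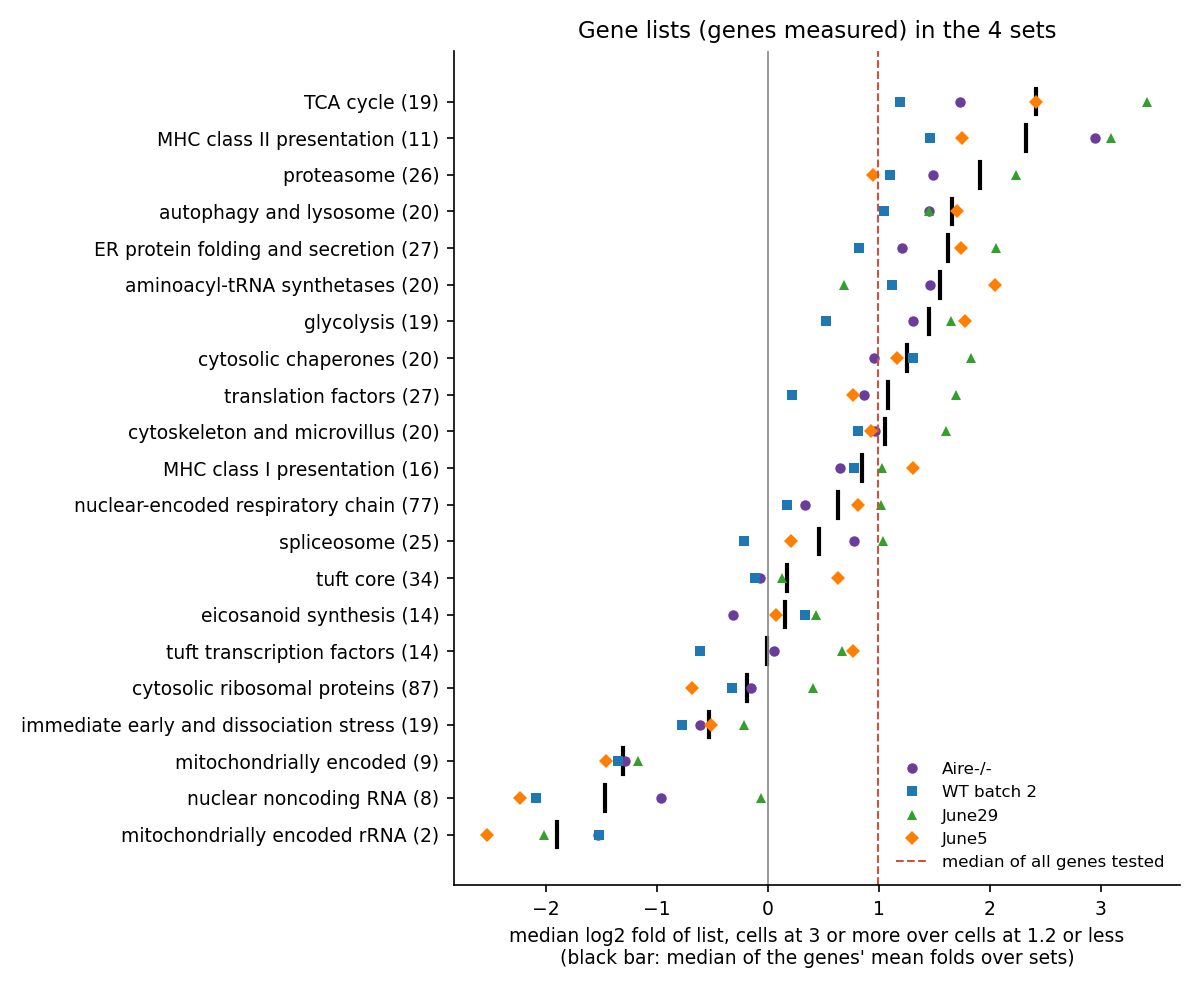
Median log2 fold of high-RNA over low-RNA cells (x axis) for 21 gene lists (number of measured genes in parentheses), by set (coloured symbols) and as the median of the genes' means over sets (black bars). The TCA cycle lies at 2.41 and mitochondrially encoded rRNA at -1.90, and the dashed line marks the median of all genes, 0.99.

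The 12 genes with the highest folds were of low level and often missing in low-RNA cells: Xpnpep1, Golt1b, Poglut1, Txndc15, Trap1, Icam1, Lbp, Sar1b, Tspan31, Slc25a17, Ippk and Tceal8, with means from 5.25 to 6.09. Xpnpep1, an aminopeptidase, had 112.9, 237, 60.6 and 297 CPM in high-RNA cells, against 0.519, 3, 2.83 and 0 CPM in low-RNA cells, with 5 or more reads in 37 high-RNA and 5 low-RNA cells without thinning. Golt1b, a protein of the Golgi, had 63, 69.9, 70.7 and 126.5 CPM in high-RNA cells, against 0, 3.30, 0.141 and 0.298 CPM in low-RNA cells. Their folds depend on the CPM added, and with 5 CPM added in place of 1 the log2 fold of Golt1b was 3.86 and not 5.66. Gp2, a receptor of mucosal M cells, had 5 or more reads in 17 high-RNA and 28 low-RNA cells, yet had 1036, 782, 1191 and 2522 CPM in high-RNA cells, against 0.260, 522, 287 and 53.3 CPM in low-RNA cells.

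Against intermediate cells, few genes differed by the size rule. Both comparisons use the same high-RNA cells. Of 8209 genes tested 130 (1.58%) were higher and 1.52% lower, with a median log2 fold of 0.13 over all genes. By set the median was -0.04, -0.11, 0.60 and 0.00, with the largest value in June29. Of the 694 genes at 200 CPM or more only Sec23b was higher, a coat protein of vesicles leaving the endoplasmic reticulum, with 291, 354, 205 and 361 CPM in high-RNA cells against 149.3, 165.99, 60.5 and 99.9 CPM in intermediate cells. Another 5 were lower, Gm10800, Gm10801, Gm26917, Neat1 and Slc34a2, a phosphate transporter. Neat1 had 520, 343, 1005 and 276 CPM in high-RNA cells, against 796, 731, 2966 and 2316 CPM in intermediate cells, a log2 fold of -1.58 ± 1.06. Among low genes, Dusp6, a phosphatase that switches off ERK signalling, had 64.8, 141.1, 58.3 and 156.96 CPM in high-RNA cells, against 7.69, 8.82, 0.653 and 10.8 CPM in intermediate cells, and Ccnd1, a cyclin of the G1 phase, 34.6, 33.7, 25.3 and 6.23 CPM in high-RNA cells against 3.82, 0.150, 0 and 0 CPM in intermediate cells. Their mean log2 folds of 3.92 and 3.84 were 1.40 and 2.17 once the high-RNA cell with most reads was left out in each set. Ccn1, Oplah and B3galt4 had larger mean folds (4.13, 4.12 and 3.99), so these 2 genes are examples and not a theme. Mitochondrially encoded genes had a median of -0.78 ± 0.67 in this comparison, with none called of 9, and the TCA cycle 0.54 ± 0.80 with 1 of 19 higher.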

How the data were processed

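The deposited tables held counts of reads per gene and well, which the authors had made with STAR, Subread and featureCounts 1.5.3 on GRCm38, per the submitters' processing notes, which also name R 3.4.0. The authors' deposited score table served only as a list of wells, since its scale is not given in the sources used here. Of 48887 IDs, 48349 had a gene name in GENCODE M21, and rows sharing a name were summed. Counts were summed over the cells of each class and set and divided by the sum of reads other than ERCC reads (CPM). Kept cells had 45266 to 2927690 gene reads with a median of 723828. Folds, thinning and list medians were computed with Python 3.11.15, numpy 2.4.6, pandas 2.3.3 and scipy 1.17.1, and the steps were tested on simulated data. The size rule stands in for a test, because each set is 1 pool. A list's members were measured when their higher class averaged 5 CPM and tested at 20 CPM. Named genes were the 12 highest and 12 lowest called folds other than predicted genes and pseudogenes, up to 6 called members of each list by size of fold and up to 4 members of each list by level; the rRNA gene, the copies of mitochondrial sequence, the satellite-region genes and the genes named at 200 CPM or more were added after their values were seen. The members and lists were chosen with earlier results of these data known. No UMIs exist in this protocol, so reads are not independent molecules. Sequences and coordinates came from GENCODE M21. Alternatives were scaling, level minimum, CPM added, class cuts, thinning, cell filters and leaving out sets.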

Additional observations from a re-analysis of the deposited data

How the results depend on the processing

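No paired analysis was possible because the well numbers only name wells and the results come from no test. Of the genes tested, 19.4% were higher and 1.42% lower. Under median-of-ratios scaling these were 9.13% and 4.80%, within the batch numbers that the deposited list of wells gives to cells of batch 2, where 3 pairs of classes had 5 cells or more each, 12.5% and 3.65%, and with no level minimum, which adds undetected genes, 3.99% and 0.259%. Thinned to 1 depth, 0.814% were lower. Leaving out 1 set gave 1.55% to 2.47% lower, 2.47% without Aire-/- and 2.45% without June29. Settings chosen after seeing the data were a level of 200 CPM averaged over both classes (6.6% lower), a total without mitochondrial, satellite-region, rRNA and copy genes (12.8% and 2.21%), one without mitochondrial and satellite-region genes alone, and leaving out cells of few tuft core reads. The difference in genes with a read per cell, at 1 fixed depth, was 1927.5, and with no thinning it was 2487.5. List medians larger than their own spread over sets that changed sign were the nuclear-encoded respiratory chain (-0.12 under median-of-ratios scaling, against 0.63), ciliated cell markers (-0.21 to 1.71 leaving out 1 set, lowest without WT batch 2, against 1.45) and Aire-expressing mTEC (-1.49 within those batch numbers and -0.15 without cells of few tuft core reads, against 0.80). Of medians within their spread, among others, bitter receptors (-0.80, against 1.40), Gp2 state (-0.07, against 2.10), RNA polymerase II (-0.23, against 0.51), spliceosome (-0.29, against 0.45), tuft core (-0.57, against 0.17) and eicosanoid synthesis (-0.59, against 0.15) changed sign at their lowest setting. Tas2r115 had a log2 fold of -0.17 within those batch numbers, against 3.09. The setting of batch numbers left out June29, June5 and the Aire-/- cells at number 2, which included 3 low-RNA cells. It therefore changed the sets compared as well as the split. The cause of these changes was not tested. Otherwise 273 log2 folds and 71 list medians moved by more than the spread over sets, and 6476 and 1001 did not move so far.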
